A study of Gracilariopsis lemaneiformis with 12 samples.

Results

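Gracilariopsis lemaneiformis is a red seaweed grown as a source of agar, and 75 of its 25766 assembled loci were lower with the auxin indole-3-acetic acid (IAA) at day 1 and close to the untreated level at day 3. The members were chosen by measured values. Each had a highest group mean of at least 5 FPKM (fragments per kilobase, scaled to the mapped fragments of the library), and its 3 day-1 IAA libraries all lay below its 3 day-1 control libraries. The difference IAA minus control in log2(mean FPKM + 1) had to be at most -0.5 at day 1 and under 0.3 in size at day 3. A locus is either a single Unigene sequence or the sum of all contigs that share a cluster number. Of the 75, 59 were Unigene sequences and 16 were clusters, which held 38 contigs.

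The 12 libraries came from strain 981 and formed 4 groups of 3: IAA at 100 µM for 3 days, untreated at day 3, IAA at 100 µM for 1 day, and untreated at day 1. Every library carries the tissue label rhizoids. In the design text branches appear as well, possibly for one of the days, in which case day and tissue cannot be told apart. Separate cultures are not stated for the replicates, and p-values then reflect the spread of these libraries alone, which may be technical. In such bulk samples, fewer cells of a type and less RNA per cell cannot be told apart.

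Auxin is best known from land plants, where it directs cell elongation, branching and root formation, and where receptor proteins bind it and mark repressors of transcription for degradation. Red algae contain IAA and respond to it in growth and branching, but the path from the hormone to their genes is far less understood. The files do not pair the IDs with gene names, functions or sequences, so no member can be assigned to a pathway here and the loci are described by ID, level and behaviour. At most 2 IDs in each direction or class are named for a comparison, except for a few clusters described by contig that were picked after their values were seen.

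The libraries' FPKM summed to 291205 to 308835, and relative depth, estimated from the steps between low values, was 0.981 to 1. That estimate used only steps within 8% of the lowest one, so it could not show larger differences in depth. Absolute depth is unknown. No 2 libraries held identical values, and across the 11044 loci with a mean of at least 1 FPKM the correlation of libraries was 0.990 to 0.993 within groups and 0.963 to 0.985 between groups, where loci are not independent replicates.

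The first question was how far the 75 loci lay below controls after 1 day of IAA. These differences chose the members and are given as a description. The day-1 difference ran from -1.55 to -0.51 with a median of -0.66, and the median member stood at 61.0% of its control level and the lowest at 28.7%. The ratio of the lowest control library to the highest IAA library ran from 1.05 to 3.11 with a median of 1.49. Unigene2662_All had 3.61, 3.37 and 3.41 FPKM with IAA at day 1, against 12.74, 12.21 and 11.24 FPKM in day-1 controls. Unigene6743_All had 10.84, 12.10 and 11.64 FPKM with IAA and 34.75, 35.59 and 36.82 FPKM in controls. In both, every control library was more than double every IAA library.

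**Figure D1:**
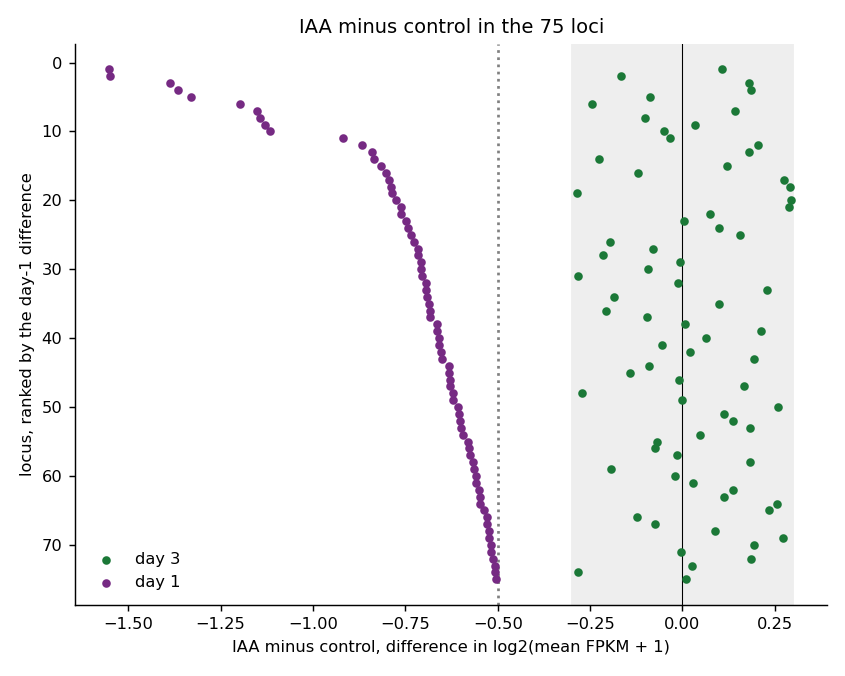
Difference IAA minus control in log2(mean FPKM + 1) for each of the 75 loci, ranked from the largest day-1 fall, with day 1 in purple and day 3 in green. Day-1 values run from -1.55 to -0.51 and day-3 values stay within the grey band of 0.3 on either side of 0, which is how the loci were chosen.

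All 75 also had a limma adjusted p (Benjamini-Hochberg) under 0.05 for lower levels with IAA at day 1. Over the tested loci 12.5% were called lower, a share that cannot be read against the members because the same libraries chose them. At day 3 the difference ran from -0.28 to 0.30 with a median of 0.02. It was above 0 in 41 members, below 0 in 33 and at 0 in 1. Its 95% half-width had a median of 0.13, and in 5 members the interval reached 0.5 in size, so a difference of that size at day 3 is not excluded for them. The interval, not adjusted for the number of loci, lay wholly below 0 in 13 members, with differences from -0.28 to -0.08, and wholly above 0 in 18. The rule limited these differences and the share over all loci was not counted, so this is a description. Near 0 here means under the 0.3 limit, which is not the same as equal to controls.

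Nearest to the thresholds, Unigene5037_All was just inside at day 1, with a difference of -0.506 (6.41 ± 0.798 FPKM with IAA and 9.53 ± 0.710 FPKM in controls; SD, n = 3). Unigene4132_All was just outside at -0.499 (4.22 FPKM with IAA and 6.38 FPKM in controls). At day 3 Unigene28813_All was just inside, at 0.295, and Unigene1517_All just outside, at -0.316. The weakest member by level reached 5.71 FPKM in its highest group, and the nearest locus below the limit reached 4.50 FPKM.

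Of 136 loci at 5 FPKM or more that were separate from and at least 0.5 below controls at day 1, the 75 members were those near 0 at day 3. A further 11 were still lower by 0.5 or more at day 3, and 18 were higher by 0.5 or more. In the others, 14 lay between -0.5 and -0.3 and 18 between 0.3 and 0.5.

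Whether these loci count as lowered at day 1 only depends on how libraries are scaled. Median-of-ratios size factors, which set the median ratio of all loci to an average library to 1, put the members' median difference at -0.59 on day 1 and -0.31 on day 3. All 75 stayed separate and lower at day 1 under that scaling, but 40 were then at least 0.3 lower at day 3, and 26 of the 75 met the whole rule. Over the 5512 loci of at least 5 FPKM, that scaling put the median day-3 difference at -0.32, against 0.01 as deposited. With size factors taken only from loci of at least 20 FPKM, the members' medians were -0.64 at day 1 and 0.05 at day 3, and 64 of the 75 met the rule.

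The choice was also repeated with 1 replicate number left out of all groups, and the left-out libraries were then compared. With replicate 1 left out, 88 loci met the rule, and in replicate 1 itself 80 of them (90.9%) were lower with IAA at day 1, with a median difference of -0.64. In replicate 2 it was 78 of 79 loci (98.7%) with a median of -0.63, and in replicate 3 it was 79 of 84 (94.0%) with a median of -0.62. Over all loci of at least 5 FPKM 62.9% to 63.9% were lower in those single libraries. A fall of at least 0.5 was seen in 66.7% to 73.9% of the loci so chosen, and in 3.26% to 4.11% of all loci. At day 3 the left-out difference was under 0.3 in size for 71.4% to 89.9% of the chosen loci and for 70.1% to 70.7% of all. The fall at day 1 was thus present in libraries that had no part in the choice. At day 3 the share near 0 was close to that of all loci when replicate 3 was left out (71.4% and 70.1%).

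The second question was where the day-3 level lay. Since IAA and control libraries were close to each other at day 3, the members' day-3 level could lie near the untreated level of day 1, near the IAA level of day 1, or outside both. The differences in the rule do not fix this. The 6 day-3 libraries were therefore set against both day-1 groups by whether they overlapped, and separately tested by the mean day effect, the mean of day 3 minus day 1 over IAA and controls. The noise of the mean day effect is independent of that of the differences that chose the members, as long as the groups have equal spread. Its size is not free of the choice. It places the mean day-3 level relative to the midpoint of the day-1 groups, which the rule holds apart. A member whose day-3 level matches either day-1 group therefore gets an effect through the choice. The limit of 5 FPKM is not independent of the mean day effect either. Unigene2662_All and Unigene1557_All, for example, passed that limit only through day-1 controls (12.1 and 9.42 FPKM). For such loci a lower day-3 level is partly built in.

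By the mean day effect 32 members were higher at day 3 and 26 lower, and 17 did not pass the test. The test was limma with Benjamini-Hochberg adjustment over 11044 loci. Higher and lower are relative to the midpoint of the day-1 groups, and the treatments could change in opposite directions. By separate libraries within each treatment, 14 members were higher at day 3 in both and 12 lower in both. In 22 they were higher with IAA and lower in controls. A further 14 were higher with IAA only and 13 lower in controls only, with the other treatment overlapping. The members' median effect was 0.02, with quartiles of -0.20 and 0.36. The higher members made up 42.7% and the lower ones 34.7%. Among all tested loci 15.4% were higher and 54.7% lower, and among the 5512 loci of at least 5 FPKM, the fairer match in level, the shares were 26.8% and 46.5% and the median was -0.05. Whether the members differ from those loci was not tested. Under median-of-ratios scaling 53 members were higher and 13 lower, which put the higher share of the members' calls at 80.3%, against 55.2% as deposited. Over all loci that share was 63.9% so scaled, against 22% as deposited. The median of all tested loci was 0.04 so scaled, against -0.22 as deposited. With quantile normalization the higher share of calls was 62.5% among members and 43.3% among all loci, whose median was then -0.05.

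**Figure D2:**
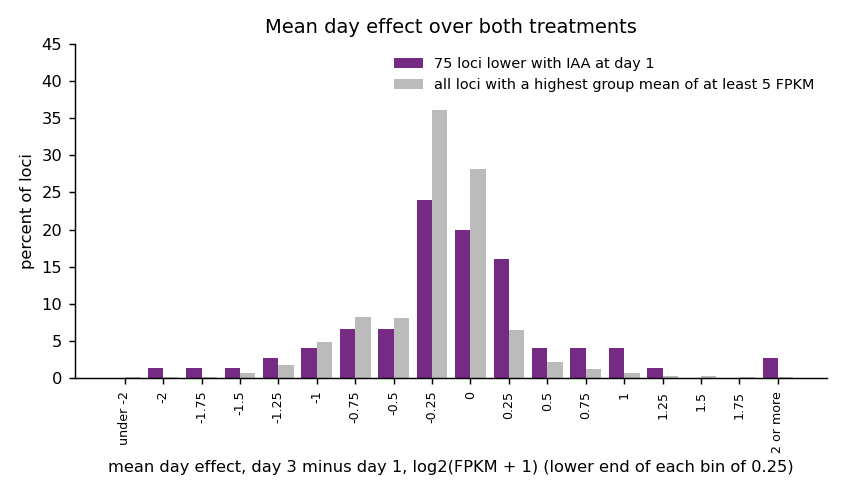
Percent of the 75 loci (purple) and of the 5512 loci with a highest group mean of at least 5 FPKM (grey) in each bin of the mean day effect, day 3 minus day 1 in log2(FPKM + 1). Of the 75 loci 16.0% fall between 0.25 and 0.5, against 6.53% of the comparison loci, and 24.0% against 36.1% between -0.25 and 0. The rule sets the members' day-1 groups at least 0.5 apart. A member whose day-3 level matches 1 of them therefore has an effect away from 0, so these shares are a description.

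By overlap of libraries the members fell into 5 classes and 1 odd member. In 19 members the day-3 libraries lay above day-1 IAA and overlapped day-1 controls, and in 12 they lay above both. In 17 they lay below day-1 controls and overlapped day-1 IAA, and in 11 below both. In 15 they lay between the day-1 groups, and Unigene284_All overlapped both. In all, the day-3 libraries were above all day-1 IAA libraries in 46 members and below them in 11, where 19.7% and 28.1% of the loci of at least 5 FPKM were. They were above all day-1 controls in 12 members and below them in 43, where 14.6% and 34.0% were. The members' IAA libraries were low and their controls high at day 1 by choice, so these counts are a description. The class counts depend on scaling. Under median-of-ratios scaling 23 members were above both, 34 above IAA overlapping controls, 12 below controls overlapping IAA, 3 below both and 0 between. The values below are as deposited.

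**Figure D3:**
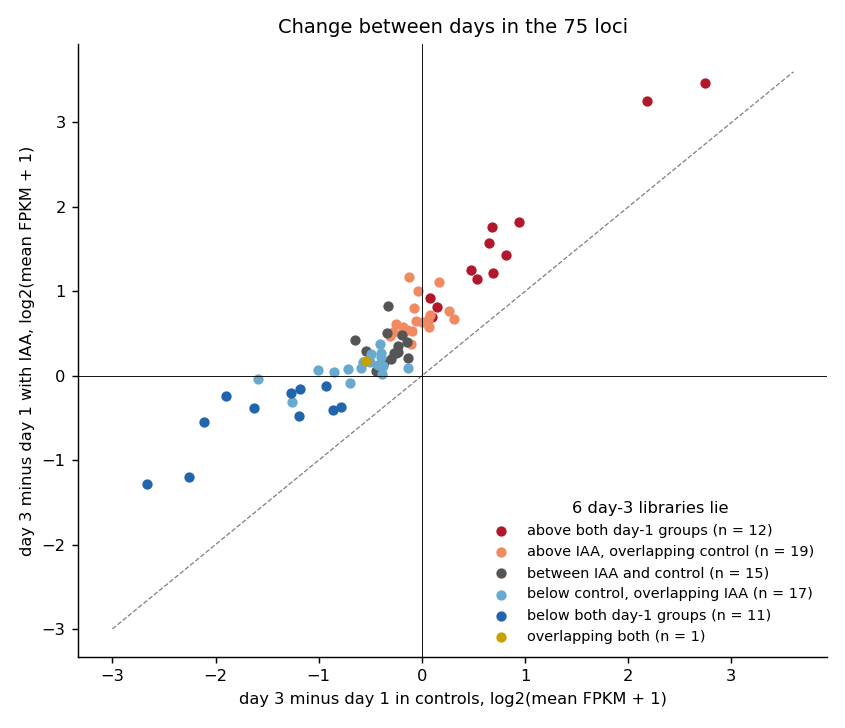
Day 3 minus day 1 in controls (horizontal) and with IAA (vertical), both in log2(mean FPKM + 1), for each of the 75 loci, coloured by where the 6 day-3 libraries lie relative to the day-1 groups. All points lie above the dashed line of equal change, which the rule fixes. Position along the line is not fixed by the differences in the rule and runs from about -2 to 3.

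The class above day-1 IAA and overlapping day-1 controls held loci that were low in a single group of the 4, such as its named loci. In some other members day-3 controls also all lay below day-1 controls. Unigene4135_All, the member of this class with the largest fall, had 17.27, 18.07 and 17.22 FPKM with IAA and 15.32, 15.92 and 16.06 FPKM in controls at day 3. At day 1 it had 6.60, 7.31 and 7.74 FPKM with IAA, against 15.95, 18.10 and 17.73 FPKM in controls. Only the day-1 IAA libraries stood apart, at 41.8% of the control mean of that day. Its mean day effect was 0.53 ± 0.04 (SE; limma adjusted p = 4.43e-07), and 0.85 under median-of-ratios scaling. As deposited, its controls were close on both days, so this effect mostly restates the day-1 fall by which the locus was chosen.

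Unigene1210_All behaved alike. It averaged 12.7 ± 1.03 FPKM with IAA and 13.7 ± 0.752 FPKM in controls at day 3, against 5.85 ± 0.827 FPKM with IAA and 14.1 ± 0.892 FPKM in controls at day 1 (SD, n = 3). Its IAA libraries were 2.17-fold higher at day 3, while controls were at 0.971 of their day-1 mean. Of the 19 members of this class, 16 passed the test of the mean day effect, all of them higher at day 3, the direction the definition favours. Their median level was 14.4 FPKM, and 2 of the 19 were clusters.

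The class above both day-1 groups held the largest changes over time. Unigene29258_All had 352.4, 356.73 and 359.43 FPKM with IAA and 344.9, 337.96 and 340.04 FPKM in controls at day 3. At day 1 it had 28.5, 30.33 and 35.01 FPKM with IAA, against 51.25, 50.21 and 48.59 FPKM in controls. All day-3 libraries were more than 6 times any day-1 library, and IAA and controls were close at day 3. The mean day effect was 3.11 ± 0.04 (SE; limma adjusted p = 3.48e-14), the largest among members.

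Unigene28813_All was next, with a mean day effect of 2.72 ± 0.03 (SE; limma adjusted p = 6.26e-15). Its IAA libraries averaged 259 ± 10.5 FPKM at day 3 and 26.3 ± 0.693 FPKM at day 1, a 9.87-fold difference. Its controls averaged 211 ± 7.03 FPKM at day 3 and 45.7 ± 1.62 FPKM at day 1, a 4.62-fold difference (SD, n = 3). The next member of the class had an effect of 1.38. Cluster CL2352, which had the largest day-1 fall of the class, averaged 22.1 ± 2.58 FPKM with IAA and 17.9 ± 1.63 FPKM in controls at day 3, against 5.80 ± 0.955 FPKM with IAA and 10.7 ± 0.238 FPKM in controls at day 1. All 12 members of the class were called higher by limma, with effects from 0.40 to 3.11 and a median of 1.03. The class definition fixes that direction, so the calls are no separate evidence of it.

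The class below day-1 controls and overlapping day-1 IAA is the mirror image, and its named loci were high only in the day-1 controls. The definition does not require this, and in at least 1 other member day-3 controls stayed closer to day-1 controls than to IAA libraries. Unigene1557_All had 3.43, 3.01 and 2.40 FPKM with IAA and 2.60, 2.40 and 2.41 FPKM in controls at day 3. At day 1 it had 2.96, 3.13 and 3.05 FPKM with IAA, against 9.74, 9.16 and 9.37 FPKM in controls. The other 9 libraries lay between 2.40 and 3.43 FPKM, and controls at day 3 were at 0.262 of their day-1 mean. Its mean day effect was -0.82 ± 0.07 (SE; limma adjusted p = 6.66e-07), and -0.54 under median-of-ratios scaling. As deposited, its IAA libraries were close on both days, so this effect mostly restates the day-1 fall by which the locus was chosen. Unigene8485_All averaged 6.08 ± 0.721 FPKM with IAA and 7.38 ± 0.487 FPKM in controls at day 3, against 7.75 ± 0.196 FPKM with IAA and 19.1 ± 0.662 FPKM in controls at day 1.

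The second most abundant member, Unigene4265_All, is of this class too. It had 353.81, 356.65 and 356.40 FPKM with IAA and 329.06, 316.13 and 305.74 FPKM in controls at day 3. At day 1 it had 331.47, 325.05 and 351.76 FPKM with IAA, against 509.57, 503.19 and 549.21 FPKM in controls. Its mean day effect was -0.32 ± 0.03 (SE; limma adjusted p = 1.06e-06), which became 0.03 (limma adjusted p = 0.4996) under median-of-ratios scaling. Here too the effect as deposited mostly restates the chosen day-1 fall. In this class, whose definition favours a lower day-3 level, 11 of 17 members were called lower at day 3, and 6 did not pass. Its median mean level, 9.67 FPKM, was the lowest of the 5 classes.

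The class below both day-1 groups held the 2 largest day-1 falls and the most abundant member. Unigene2662_All had 0.68, 0.81 and 1.01 FPKM with IAA and 0.99, 1.22 and 0.96 FPKM in controls at day 3, below the 3.37 to 3.61 FPKM of day-1 IAA and the 11.24 to 12.74 FPKM of day-1 controls. Its mean day effect was -1.98 ± 0.07 (SE; limma adjusted p = 3.47e-10). This locus passed the limit of 5 FPKM only through day-1 controls, so a lower day-3 level was partly built in. Controls at day 3 stood at 0.0876 of their day-1 mean and IAA libraries at 0.241.

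Unigene6743_All had 10.06, 9.89 and 8.89 FPKM with IAA and 9.32, 8.76 and 8.49 FPKM in controls at day 3. Its day-1 IAA libraries, at 10.84 to 12.10 FPKM, were already close to that level, while day-1 controls were at 34.75 to 36.82 FPKM. The mean day effect was -1.07 ± 0.04 (SE; limma adjusted p = 5.12e-10). Cluster CL1750 had the second most negative effect, -1.73 ± 0.04 (SE; limma adjusted p = 3.05e-12). It averaged 72.5 ± 4.32 FPKM with IAA and 59.2 ± 0.729 FPKM in controls at day 3, against 168 ± 11.5 FPKM with IAA and 286 ± 12.9 FPKM in controls at day 1 (SD, n = 3). All 11 members of this class, whose definition fixes the direction, were called lower by limma, with effects from -1.98 to -0.53. Of them 5 were clusters. The median day-1 difference of this class was -0.84, and those of the other 4 classes lay between -0.70 and -0.65.

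**Figure D4:**
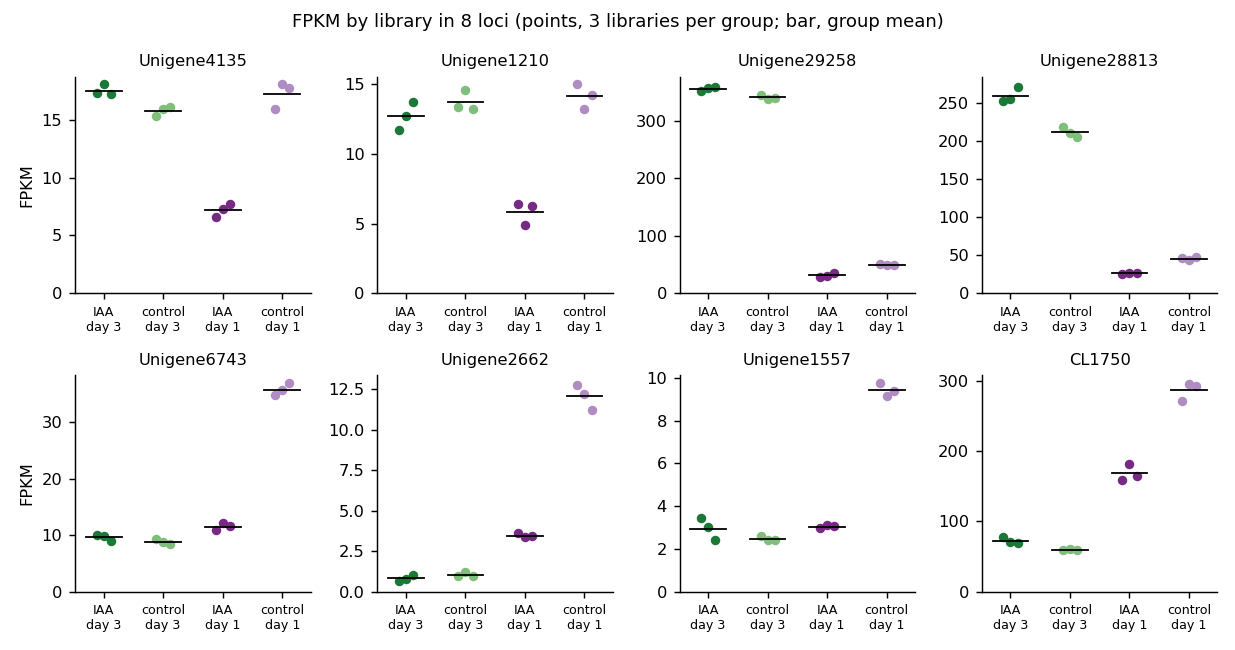
FPKM in each of the 12 libraries for 8 of the 75 loci, with points for libraries and bars for group means, day 3 left of day 1 and IAA left of control. Unigene4135 and Unigene1210 are low in day-1 IAA only, Unigene29258 and Unigene28813 are high on day 3, and in the lower row day-1 controls stand above all other groups.

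The class between the day-1 groups had day-3 levels inside the gap. Unigene7465_All averaged 5.53 ± 0.426 FPKM with IAA and 4.40 ± 0.365 FPKM in controls at day 3, against 3.87 ± 0.216 FPKM with IAA and 7.45 ± 0.613 FPKM in controls at day 1 (SD, n = 3). Unigene1819_All, with the largest day-1 fall of the class, varied more. It had 7.59, 11.91 and 12.86 FPKM in day-3 controls and 7.56, 6.23 and 3.56 FPKM in day-1 IAA libraries. Its mean day effect of 0.26 ± 0.15 (SE) did not pass the test (limma adjusted p = 0.136), and was called without day-1 IAA replicate 1 (0.35, limma adjusted p = 0.0409) or without day-3 control replicate 1 (0.36, limma adjusted p = 0.0303). Under median-of-ratios scaling it was 0.58 (limma adjusted p = 0.00268), and that of Unigene7465_All was 0.18 (limma adjusted p = 0.0233), against -0.11 as deposited (limma adjusted p = 0.102). In this class 4 members were called higher, 4 lower and 7 did not pass.

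Read over time within each treatment, 22 members had all day-3 libraries above day 1 with IAA and all below day 1 in controls. A further 14 were higher with IAA with overlapping controls, 13 lower in controls with overlapping IAA, 14 higher in both and 12 lower in both. Among loci of at least 5 FPKM these patterns made up 5.37%, 7.84%, 15.8%, 14.3% and 25.8%. The direction in controls depends on scaling, with a median day 3 minus day 1 over members of -0.28 as deposited and 0.23 under median-of-ratios scaling. So scaled, 1 member was higher with IAA and lower in controls, 14 were higher with IAA with overlapping controls, 5 lower in controls with overlapping IAA, 43 higher in both and 9 lower in both. With quantile normalization the first pattern held 14 members. The gap between the treatments' changes is set by the choice, so the first pattern in particular carries no independent information about IAA.

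The loci with the mirrored choice, raised with IAA at day 1 only, numbered 63. By the mean day effect 14 of these were higher and 36 lower at day 3, and their median was -0.12. For the 10 loci lowered on both days the counts were 4 and 3, and the median 0.03. Whether these sets differ was not tested.

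The members were less abundant than other loci past the 5 FPKM limit, with a median mean level of 16.2 FPKM against 26.2 FPKM. Clusters made up 21.3% of them and 30.2% of those loci. Their median spread between replicates was 0.08 on the log2 scale, against 0.06 for those loci. Summed over members, the libraries held 4679 ± 55.5 FPKM with IAA and 4506 ± 22.7 FPKM in controls at day 3, against 3615 ± 43.9 FPKM with IAA and 6465 ± 139.7 FPKM in controls at day 1 (SD, n = 3). Much of the sum came from 1 cluster. Without CL2068 the sums were 3885 ± 47.3 and 3683 ± 24.4 FPKM for IAA and controls at day 3, against 2698 ± 47.6 and 4475 ± 79.1 FPKM for IAA and controls at day 1.

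The third question was whether the contigs of a cluster moved together. Cluster CL2068, the most abundant member and of the class below both day-1 groups, had 804.58, 784.59 and 793.14 FPKM with IAA and 810.29, 836.10 and 821.40 FPKM in controls at day 3. At day 1 it had 929.65, 901.25 and 921.96 FPKM with IAA, against 1985.30, 1929.34 and 2056.45 FPKM in controls. The day-1 controls stood at more than double every other library. The mean day effect was -0.74 ± 0.02 (SE; limma adjusted p = 2.51e-11), and -0.39 under median-of-ratios scaling.

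Of its 5 contigs, the 4 abundant ones shared the day-1 fall, with differences of -0.997, -1.18, -1.06 and -1.10 for contigs 2, 3, 4 and 6. Contig 6 held 62.5% of the cluster with IAA and 62.7% in controls at day 3, against 62.4% with IAA and 61.8% in controls at day 1. CL2068.Contig1_All went its own way at a low level, with 3.32 ± 0.119 FPKM with IAA and 3.97 ± 0.764 FPKM in controls at day 3, against 2.33 ± 0.312 FPKM with IAA and 2.61 ± 0.472 FPKM in controls at day 1. Its ratio to the rest of the cluster was higher at day 3 by 1.16 ± 0.10 on the log2 scale (SE; limma adjusted p = 3.55e-05). It held at most 0.482% of the cluster in any group, so the sum hardly depends on it.

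Over the table, the ratio of a contig to the rest of its cluster was tested in 4632 contigs of 1599 clusters, and 15.8% had a mean day effect in either direction. Among members 34 contigs of 15 clusters were tested, of which 5 were called higher and 4 lower, in 5 clusters. With a pseudocount of 0.1 FPKM 6 were called. The cluster not tested held 1 contig, and 3 further contigs averaged under 1 FPKM and were not tested. The others called were in CL1023 (contigs 1 and 2) and CL691 (contig 2), where the main contig averaged 307 and 279 FPKM and the other contig 1.51 and 0.409 FPKM. In all 4 groups contig 1 held 99.3% to 99.7% of CL1023, and contig 2 held 99.8% to 99.9% of CL691. The ratios in both clusters thus mostly follow the level of the main contig. In a cluster of 2 contigs the values mirror each other.

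Cluster CL1997, in the class below both, was made of contigs that behaved differently. CL1997.Contig2_All was listed at 0 in all libraries except the day-1 controls, where it had 7.57, 6.24 and 10.74 FPKM. CL1997.Contig1_All averaged 60.3 ± 5.28 FPKM with IAA and 46.1 ± 2.24 FPKM in controls at day 3, against 72.0 ± 2.72 FPKM with IAA and 106 ± 7.52 FPKM in controls at day 1. CL1997.Contig3_All stayed between 22.49 and 27.84 FPKM in all 12 libraries. The fall of the cluster was thus carried by contigs 1 and 2. The effect on the share was -1.10 ± 0.11 for contig 2 (SE; limma adjusted p = 9.24e-05), a size set by the pseudocount, with -2.68 at 0.1 FPKM, and it was 0.92 ± 0.08 for contig 3 (limma adjusted p = 4.11e-05).

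In CL2352 contig 1 carried the change, with 19.2 ± 1.74 FPKM with IAA and 14.3 ± 1.40 FPKM in controls at day 3, against 3.64 ± 0.248 FPKM with IAA and 8.25 ± 0.476 FPKM in controls at day 1. Contig 2 averaged 2.16 to 3.57 FPKM in the 4 groups. The share of CL2352.Contig1_All was higher at day 3 by 1.16 ± 0.32 and that of CL2352.Contig2_All changed by -1.16 (SE; limma adjusted p = 0.0362 and 0.0365). Both calls were lost with a pseudocount of 0.1 FPKM (limma adjusted p = 0.0992 for both), and on leaving out any 1 of 7 libraries (0.0547 to 0.0782).

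CL1668 held 2 contigs that ran against the cluster on day 1, with wide spread. CL1668.Contig8_All had 12.77, 13.53 and 4.33 FPKM with IAA at day 1, against 0.25, 1.88 and 9.45 FPKM in controls, so the groups overlapped. CL1668.Contig2_All averaged 3.65 ± 3.17 FPKM with IAA and 2.17 ± 2.81 FPKM in controls at day 1. Contig 1, the main one, averaged 72.0 ± 6.90 FPKM with IAA and 121 ± 2.96 FPKM in controls. None of these contigs had a called change of share between days.

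In CL2413 the contigs moved in opposite directions at day 3, which the sum does not show. CL2413.Contig1_All had 7.51, 7.17 and 8.66 FPKM with IAA and 5.25, 4.22 and 6.49 FPKM in controls at day 3, a difference of 0.47. CL2413.Contig2_All had 0.46, 0.41 and 0.21 FPKM with IAA and 3.06, 3.78 and 1.81 FPKM in controls, a difference of -1.51. Neither contig's groups overlapped. Contig 2 held 4.52% of the cluster with IAA and 35.3% in controls at day 3, against 3.08% with IAA and 8.43% in controls at day 1. This cluster was picked after its values were seen, and its IAA differences were not tested.

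**Figure D5:**
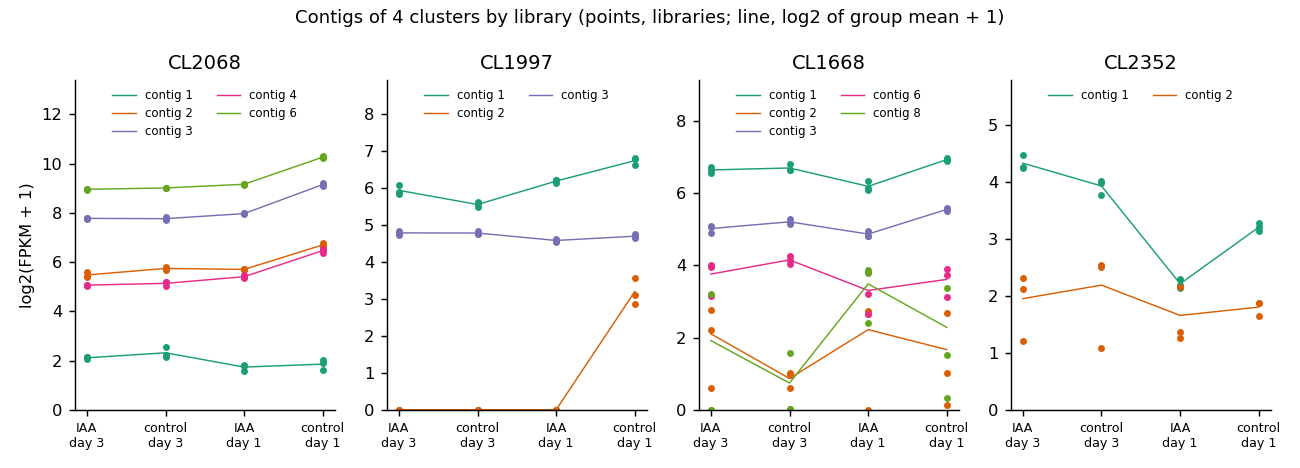
Level in log2(FPKM + 1) of each contig of 4 member clusters, with points for libraries and lines through the log2 of the group means, IAA left of control and day 3 left of day 1. In CL2068 the 4 abundant contigs run in parallel, in CL1997 contig 2 is above 0 only in day-1 controls, and in CL1668 contigs 2 and 8 scatter within groups.

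The authors' deposited table for day 1 lists 21 sequences from 18 of the 75 loci, 20 of them lower with IAA. The exception is CL1668.Contig8_All, with a log2 ratio of 1.41 in the authors' deposited table. The smallest log2 ratio in size among these 21 was -1.01, for CL1127.Contig2_All. The median day-1 difference over all 75 loci was -0.66 in log2(mean FPKM + 1). The share of all sequences on the authors' list was not counted, so the count of members on it is a description. Why the other members are not listed was not tested. For Unigene2662_All the authors' deposited table gives -1.80, against a difference of -1.55 in log2(mean FPKM + 1). It gives -10.16 for CL1997.Contig2_All, which was listed at 0 in all day-1 IAA libraries. How the authors handled values of 0 is not stated. The authors' deposited table for day 3 lists 3 sequences of 2 member clusters, with log2 ratios of 2.00 for CL1668.Contig2_All, 2.05 for CL1668.Contig8_All and -3.01 for CL2413.Contig2_All.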

How the data were processed

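RNA was sequenced from 12 libraries. Per the file headers, the authors deposited FPKM values for 30780 sequences, and per day a table of changed sequences with log2 ratios (IAA over control), p-values and q-values. Bowtie2 2.2.5 is listed in the submitters' processing notes, its role unstated. The authors' test, assembler, quantifier and annotation were not given in the sources used here.

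FPKM was summed over contigs with the same cluster number and analysed as log2(FPKM + 1), which understates changes of low loci, with 4 group means in limma 3.58.1 (R 4.3.3), an abundance trend and Benjamini-Hochberg adjustment over 11044 loci with a mean of at least 1 FPKM. Called means an adjusted p below 0.05. Tests were two-sided. Contig shares were analysed as log2((contig + 1)/(other contigs + 1)) for contigs with a mean of at least 1 FPKM in clusters of at least 5 FPKM.

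The members and the lists were chosen with earlier results of these data known. Named loci were the 2 extremes per direction, the 2 most abundant and those at the thresholds; the overlap classes, with the 2 largest day-1 falls of each, were chosen after seeing the data. Data were also simulated with independent normal noise, few changed loci and no error in library scaling. There, changes of 0.5, 1 and 2 (log2) were recovered in 83.6%, 98.5% and 100% of cases for the mean day effect, with 8 false calls. For contig shares the figures were 49.3%, 82.1% and 97.0%, with 16. These false calls do not cover errors from scaling, on which the real calls depend. Absolute depth is unknown, so no counting interval is given.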

Additional observations from a re-analysis of the deposited data

Results flagged for a closer look

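In 4 named loci the IAA libraries were all higher at day 3 than at day 1 while the control libraries were all lower. Day 3 minus day 1 in log2(mean FPKM + 1) was 0.83 with IAA and -0.33 in controls for Unigene1819_All, and 0.42 and -0.65 for Unigene7465_All. It was 0.27 and -0.25 for Unigene5037_All, and 0.0812 and -0.71 for Unigene4265_All. The pattern depends on scaling, and under median-of-ratios scaling it was seen in none of the 4. The control values were then 0.19 for Unigene1819_All, -0.17 for Unigene7465_All, 0.26 for Unigene5037_All and -0.15 for Unigene4265_All, while all 4 stayed higher with IAA. The control libraries of Unigene1819_All also overlapped between days under the 3 other scalings, those of Unigene5037_All with quantile normalization, and the IAA libraries of Unigene4265_All with a common sum of FPKM. The difference between the treatments was not tested, because the choice of the loci fixes it.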

How the results depend on the processing

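Of 265 main values under alternatives, 246 kept within 1.5 times (counts) or within the spread of library medians. The exceptions follow. With median-of-ratios scaling 45 loci met the rule, and 4549 loci and 53 members were higher and 2569 loci and 13 members lower by the mean day effect. The members' median was then 0.37, and the overlap classes held 23 members above both, 34 above IAA overlapping controls, 0 between and 3 below both. By treatment, 1 member was higher with IAA and lower in controls, 5 overlapped with IAA and were lower in controls, and 43 were higher in both. With quantile normalization 3074 loci were lower, the members' median was 0.11, and 14 members were higher with IAA and lower in controls. The rule gave 120 sequences without summing contigs, 142 loci at a limit of 1 FPKM and 41 at 20 FPKM. Which scaling is nearer the truth was not tested.

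Leaving out 1 library gave 71 to 86 loci by the rule, 29 to 33 members higher and 24 to 26 lower, and changed no main count by over 1.5 times. Some effects changed sign. Under median-of-ratios scaling Unigene284_All was at 0.12, Unigene4265_All at 0.0336 and Unigene7465_All at 0.18 (called, limma adjusted p = 0.0233), and under quantile normalization Unigene284_All was at 0.0284 and Unigene7465_All at 0.0660. Unigene5037_All, at 0.01, ranged from -0.0197 to 0.0537 with 1 library left out, and was called at 0.32 under median-of-ratios scaling (limma adjusted p = 4.07e-04). That scaling also moved Unigene1210_All to 0.80 and Unigene8485_All to -0.47, against 0.48 and -0.78 as deposited. Among named loci and contigs 369 values kept direction and call, 18 lost the call, 5 gained it and 8 changed sign.

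Deviations of same-numbered libraries from their group means correlated at -0.05 to 0.05, and those of differently numbered ones at -0.06 to 0.06. No strong shared effect of the replicate number was thus seen, but whether a number marks a pair is not stated and cannot be settled this way. With the replicate number as a block 31 members were higher and 25 lower, and 1685 loci higher and 5997 lower; the contig shares of CL2352 had limma adjusted p = 0.0528 and 0.0529.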
